A study of Mus musculus with 14 samples.

Results

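The 10 genes described here encode heat shock proteins and chaperones of the Hsp90, Hsp70, J-domain and chaperonin families: Hsp90aa1, Hsp90ab1, Hsp90b1, Hspa5, Hspa8, Hspa9, Hspd1, Hspe1, Hsph1 and Dnaja1. Their probes were all array features, controls left out, whose gene name was 1 of the 10, which gave 16 probes of 55681 and 10 gene names of 34821. All 16 probes had enough signal to enter the comparison, which covered 29679 probes under 20407 gene names. RNA came from B-1a cells of the mouse peritoneal cavity, innate-like B lymphocytes that secrete natural antibodies. The mice were wild type (WT) or lacked Bmi1 (Bmi1 KO), a subunit of Polycomb repressive complex 1, and the question was what loss of Bmi1 changes in gene expression of these cells. Each sample was labelled with Cy3 and hybridised to its own one-colour array, with 3 KO and 3 WT arrays in a first set of experiments and 4 KO and 4 WT arrays in a second. The labels give no treatment, age, sex or strain, and they do not say which part of Bmi1 was deleted, in which cells, or whether each sample came from its own animal. P-values therefore rest on a spread between samples that may be technical.

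Chaperones bind unfolded or partly folded proteins and help them reach or regain their native form. In the cytosol, Hsp70 proteins such as Hspa8 take up clients from J-domain proteins such as Dnaja1, release them with the help of nucleotide exchange factors such as Hsph1, and pass some of them on to Hsp90. Hspa5 and Hsp90b1 do the corresponding work in the endoplasmic reticulum, where B cells fold immunoglobulin, while Hspa9, Hspd1 and Hspe1 fold proteins in the mitochondrial matrix.

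Several of these genes share short control sequences, which are shown because the paired genes are set side by side in the comparisons that follow. Promoters from RefSeq (GRCm38.p6), from 250 bases before to 50 bases after the transcription start, were used for 6 of the 10 genes, with 10 promoters. Those of Hsp90aa1, Hsp90ab1 and Hspa8 were not matched by symbol. Hspa9 was left out of the member promoters, a filter not applied to the promoters of all genes. Heat shock factors bind repeats of GAA in alternating orientation, searched for on both strands as GAANNTTC and as TTCNNGAA, which overlap in longer arrays. GAANNTTC was found in 5 of the 10 promoters, those of 4 genes, against 7.86% of 32851 promoters, and TTCNNGAA in 4 promoters of 3 genes, against 8.52%. Both counts take the DNA shared by Hspd1 and Hspe1, and that of overlapping Hsph1 promoters, more than once, so the promoters are not independent. The GAANNTTC of Hsph1 lay after the start, at bases 41 to 48 or 20 to 27 depending on the start, and is not in the stretch shown. The endoplasmic reticulum stress element, CCAAT and CCACG with 9 bases between them, was found in promoters of 2 genes, Hspa5 and Hsp90b1, against 0.119% of all promoters. Hspe1 and Hspd1 lie head to head on chromosome 1, with starts 216 bases apart for 1 of 2 annotated Hspd1 starts, and the stretch between them is the same DNA read from opposite strands. The stretch that Hspe1 and Hspd1 share is printed on the plus strand, that of Hspe1, while Hspd1 lies on the minus strand. The stretches follow with the elements in capitals, 5′ to 3′ on the strand named: chr1:55088039-55088096 (plus strand) for Hspe1 and Hspd1, chr4:40722324-40722371 (plus) for Dnaja1, chr5:149636342-149636389 (minus) for Hsph1, chr2:34772005-34772063 (plus) for Hspa5 and chr10:86705513-86705676 (minus) for Hsp90b1.
Hspe1 and Hspd1: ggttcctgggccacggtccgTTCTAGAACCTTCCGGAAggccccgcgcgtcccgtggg
Dnaja1: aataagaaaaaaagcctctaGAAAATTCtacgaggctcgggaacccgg
Hsph1: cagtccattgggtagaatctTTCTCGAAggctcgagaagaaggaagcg
Hspa5: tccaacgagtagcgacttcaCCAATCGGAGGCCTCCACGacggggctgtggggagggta
Hsp90b1: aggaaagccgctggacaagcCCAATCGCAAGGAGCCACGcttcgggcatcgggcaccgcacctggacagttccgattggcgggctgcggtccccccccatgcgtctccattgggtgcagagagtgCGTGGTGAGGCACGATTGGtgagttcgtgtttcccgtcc

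A match is a description of these letters and shows no binding. Levels on the arrays were read by probes of 60 bases, and 4 of them are shown because probes of 1 gene gave different values. The array's annotation places each on a RefSeq transcript and so in exons, with positions in mm9. Of the Hspa8 probes, A_52_P12877 lies at chr9:40611142-40611201 (plus strand), from base 730 of the transcript. A_55_P2069721, from base 1812, covers 296 bases of the genome at chr9:40612755-40613050 and so spans an exon junction. The brighter Hsph1 probe, A_55_P2003513, lies at chr5:150420110-150420169 (minus strand), and the Hspe1 probe A_55_P1953063 spans a junction at chr1:55147620-55147946 (plus strand).
Hspa8 A_52_P12877: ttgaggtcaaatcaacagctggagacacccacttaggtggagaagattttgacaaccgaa
Hspa8 A_55_P2069721: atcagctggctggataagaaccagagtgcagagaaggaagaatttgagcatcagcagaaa
Hsph1 A_55_P2003513: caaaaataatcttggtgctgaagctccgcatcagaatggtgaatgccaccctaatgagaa
Hspe1 A_55_P1953063: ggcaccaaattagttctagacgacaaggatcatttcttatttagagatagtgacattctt

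The array's annotation also lists predicted gene models for some probes: 2 for this Hspe1 probe, 2 for the Hspd1 probe and 1 for the Hsp90aa1 probe. Signal of these probes could come in part from near-identical copies of the gene, so their values are uncertain in that respect. The other 2 Hspe1 probes share 57 bases with 1 mismatch and are not independent readings.

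Array brightness differed between the genotypes. Spots well above background made up 40.6% ± 14.4 (SD, n = 7) of the KO arrays and 52.3% ± 7.12 (SD, n = 7) of the WT arrays, and 4 KO arrays lay under 40%: replicate 4 of set 1 and replicates 1, 2 and 3 of set 2. Set 1 lay on slide 1, while set 2 lay on slide 2 (its KO arrays and 2 WT arrays) and slide 3 (the other 2 WT arrays). Of 10 B-1a cell markers, 4 were above background on all 14 arrays (Cd79a, Cd79b, Ms4a1 and Tppp3), and Cd5, which defines B-1a cells, reached that level on 3 KO and 6 WT arrays, of 7 each. Bhlhe41, a regulator of B-1a cell development, was above background on 4 KO and 7 WT arrays with mean log2 levels of -0.23 and 4.38, and Spn (CD43) on 5 KO and 7 WT arrays with 2.54 and 3.55. Cd5 (-1.43 in KO and -0.80 in WT) and Ctla4 (4.18 and 4.59) also had lower means in KO. Means were higher in KO for Cd79a (8.06 and 7.08), Cd79b (7.81 and 6.02) and Ms4a1 (5.87 and 5.05). They were also higher for Tppp3 (4.13 and 2.14), Ighm (-1.07 and -1.81) and Zbtb32 (0.28 and 0.08). Of the markers of other cells of the peritoneum, 3 of 11 for macrophages (Emr1, Csf1r and Icam2) and 1 of 9 for T cells (Cd4) were above background on all arrays, against 0 of 11 for mast cells and granulocytes and 0 of 10 for mesothelial and stromal cells. S100a8, Mpo and Lum were above background on no array. Bmi1 itself was read by a pair of probes, above background on 6 KO and 6 WT arrays for the first and 5 KO and 3 WT arrays for the second, with KO medians of 2.58 and -0.16 and WT medians of 1.22 and -4.73 (log2 levels). Where these probes lie relative to the deletion is not given, so they do not check the genotype labels.

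Levels below are log2 signal minus the 75th percentile of the array, so 0 is the 75th percentile and 1 unit is a 2-fold difference. A gene with several probes is represented by its brightest, and differences are KO minus WT. None of the 10 genes passed the threshold of an adjusted p under 0.05, in a comparison where 9 of 29679 probes did (0.0303%), 1 higher and 8 lower. At an unadjusted p under 0.05, 4 genes were higher in KO (Hsp90aa1, Hsp90ab1, Hspa8 and Dnaja1), against 8.18% of all probes, and 0 were lower, against 5.38%. That count of higher genes was 0 with quantile normalization, with probes above background on all arrays as the scale, or without the 4 dim KO arrays. It was 1 when replicate 4 of KO set 1, replicate 4 of WT set 1, replicate 1 or 2 of WT set 2, or replicate 1 of KO set 2 was left out, 2 without WT set 1 replicate 3 or WT set 2 replicate 3, and 6 without WT set 2 replicate 4 or KO set 2 replicate 4. The count of lower genes was 1 (Hspe1) with probes above background on all arrays as the scale. The shares of all probes at this unadjusted p are those of the main comparison and are not given for these alternatives. Whether the counts changed with the 10 genes in particular or with all probes was therefore not tested. The difference lay above 0 for 9 of the 10 genes, as for 59.8% of all probes, with Hspe1 the exception. The median difference was 1.44 over the 10 genes and 0.32 over all probes, which include many dim ones. Among the 7057 probes above background on all arrays the median was itself 1.07. The 7 of the 10 genes with such a probe had a median of 1.498. In bulk samples, more cells of a kind and more RNA per cell cannot be told apart.

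**Figure D1:**
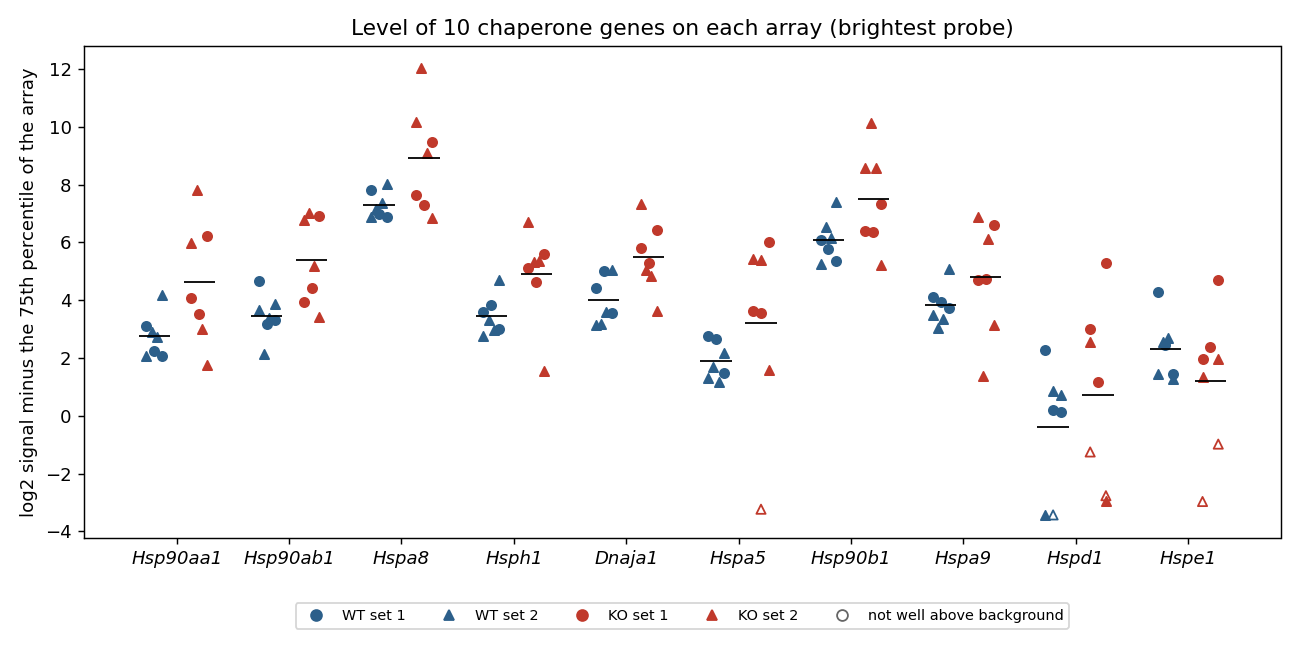
Log2 level of each of the 10 genes (brightest probe) on each of the 14 arrays, relative to the array's 75th percentile. Blue points are WT and red points are KO, circles set 1 and triangles set 2, open points were not well above background, and bars are means over 7 arrays. KO arrays spread wider than WT arrays for every gene, and KO Hspa8 ranged from 6.85 to 12.03 against 6.88 to 8.01 in WT.

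With the 75th percentile scaling over 14 arrays, the cytosolic Hsp90 genes had the largest differences of the 10, an order that changed with quantile normalization and without the 4 dim arrays. Hsp90ab1 encodes the constitutive cytosolic Hsp90, which matures kinases and steroid receptors. Its KO levels were 3.93, 4.44 and 6.91 in set 1 and 6.77, 7.03, 5.19 and 3.42 in set 2. Its WT levels were 4.68, 3.17 and 3.32 in set 1 and 3.66, 2.15, 3.37 and 3.88 in set 2. The 4 highest KO arrays lay above all WT arrays, and the other 3 lay within the WT range. WT averaged 3.46 ± 0.77 and KO 5.38 ± 1.52 (SD, n = 7 each), which differ by 1.92 (SE 0.71, 95% confidence interval 0.42 to 3.42), or 3.78-fold, with an adjusted p of 0.323. Hsp90aa1, the isoform that heat and other stresses induce, ranged from 1.76 through a median of 4.08 to 7.82 in KO. In WT it ranged from 2.07 through 2.74 to 4.19. Of the 7 KO arrays 3 exceeded every WT array and 1 lay below all of them. Its difference was 1.87 (SE 0.85, interval 0.07 to 3.66; adjusted p = 0.368).

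The cytosolic Hsp70 machine gave differences near those of Hsp90. Hspa8, the constitutive Hsp70 (Hsc70), read 7.63, 7.29 and 9.48 in KO set 1 and 10.17, 12.03, 9.09 and 6.85 in KO set 2. The WT arrays read 7.81, 6.98 and 6.88 in set 1 and 6.89, 7.17, 7.38 and 8.01 in set 2. WT levels thus kept within 6.88 to 8.01, while the 4 high KO arrays were those with under 40% of spots above background. WT averaged 7.30 ± 0.45 and KO 8.93 ± 1.83 (SD, n = 7 each), which differ by 1.63 (SE 0.73, interval 0.08 to 3.18; adjusted p = 0.367). Without those 4 arrays the difference was -0.07 (adjusted p = 0.999954). The probe A_52_P12877, whose sequence lies nearer the 5′ end of the transcript, differed by 0.76 (SE 0.60, interval -0.50 to 2.02; adjusted p = 0.528). The third Hspa8 probe, from base 2044, differed by 1.83 (SE 0.84; adjusted p = 0.368). All 3 probes were above background on 14 arrays.

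Hsph1 is an Hsp110 protein that exchanges the nucleotide of Hsp70. Its KO levels were 5.13, 4.64 and 5.60 in set 1 and 6.69, 5.33, 5.35 and 1.56 in set 2, and its WT levels ranged from 2.78 through a median of 3.31 to 4.68. Of the 7 KO arrays 5 exceeded every WT array, and replicate 4 of set 2 lay below all of them. The difference was 1.44 (SE 0.71, interval -0.07 to 2.95; adjusted p = 0.372). The other Hsph1 probe, from base 3094 against base 2728 for the brighter one, differed by 0.77 (SE 1.24; adjusted p = 0.78). On KO set 2 replicate 1 that probe was not well above background, at -2.91, where the brighter probe read 6.69.

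Dnaja1 is a J-domain protein that delivers clients to Hspa8 and stimulates its ATPase. Its KO levels ranged from 3.63 through a median of 5.30 to 7.34, and its WT levels from 3.14 through 3.60 to 5.04. Of the 7 KO arrays 5 exceeded every WT array, and 0 lay below them all. WT averaged 3.99 ± 0.82 and KO 5.49 ± 1.19 (SD, n = 7 each), which differ by 1.498 (SE 0.63, interval 0.17 to 2.83; adjusted p = 0.357). A second probe, from base 3377 of the transcript against base 1393 for the brighter one, was above background on 2 KO and 4 WT arrays with a difference of -0.11 (SE 0.94). That probe entered the comparison through WT alone and most of its KO values lie at background, so its difference says little about the gene.

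**Figure D2:**
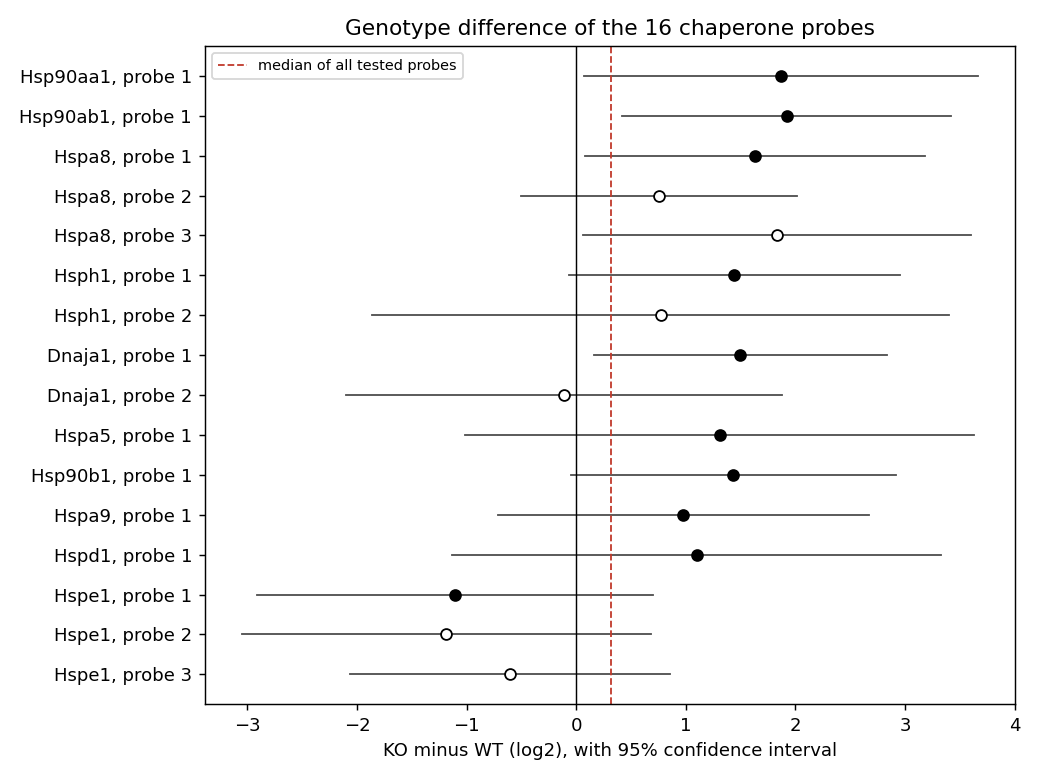
KO minus WT difference (log2) of each of the 16 probes with its 95% confidence interval from the genome-wide limma fit. Filled points are the brightest probe of a gene, open points its other probes, the solid line is 0 and the dashed line is the median of all tested probes at 0.32. The 3 Hspe1 probes and the second Dnaja1 probe, which entered through WT alone, lie below 0, and the intervals of 5 probes exclude 0.

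In the endoplasmic reticulum pair, KO levels spread widely. Hspa5 (BiP), the Hsp70 that holds immunoglobulin heavy chains until light chains join, read 3.64, 3.54 and 6.03 in KO set 1 and 5.43, 5.39, -3.23 and 1.59 in KO set 2. The WT arrays read 2.76, 2.68 and 1.49 in set 1 and 1.29, 1.68, 1.16 and 2.18 in set 2. Of the 7 KO arrays 5 exceeded every WT array. The value of -3.23, on replicate 3 of set 2, was not well above background. The difference was 1.31 (SE 1.10, interval -1.01 to 3.63; adjusted p = 0.557), and without that array it was 2.34 (adjusted p = 0.3003). It was 0.80 and 0.81 without KO set 2 replicate 1 or 2. Hsp90b1 (GRP94), the endoplasmic reticulum Hsp90 that folds Toll-like receptors and integrins, ranged from 5.22 through a median of 7.33 to 10.15 in KO. In WT it ranged from 5.26 through 6.09 to 7.41, and 3 KO arrays exceeded every WT array while 1 lay below them. Its difference was 1.43 (SE 0.70, interval -0.05 to 2.92; adjusted p = 0.371) over 14 arrays and -0.06 without the 4 dim arrays.

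The mitochondrial genes held the only difference below 0, that of Hspe1, and the smallest in size with the 75th percentile scaling over 14 arrays, but with quantile normalization those of Hspe1 (-1.72) and Hspd1 (0.74) were the largest of the 10. Hspa9 (mortalin), the Hsp70 that pulls proteins into the matrix, ranged from 1.37 through a median of 4.75 to 6.87 in KO and from 3.03 through 3.72 to 5.09 in WT. It was above every WT array on 3 KO arrays and below them on 1. Its difference was 0.97 (SE 0.80, interval -0.72 to 2.67; adjusted p = 0.547), and it turned to -0.07 when probes above background on all arrays set the scale, where the median of all probes was -0.73. It was 0.56 without KO set 2 replicate 1 and 1.54 without KO set 2 replicate 2. Hspd1 (Hsp60), which forms the barrel of the matrix chaperonin, ranged from -2.95 through 1.16 to 5.30 in KO and from -3.44 through 0.20 to 2.29 in WT, with 3 KO arrays above every WT array. It was above background on 5 KO and 6 WT arrays, and the difference was 1.10 (SE 1.05, interval -1.13 to 3.33; adjusted p = 0.612). It was 0.53 without KO set 2 replicate 1 and 0.59 without KO set 1 replicate 4.

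Hspe1 (Hsp10) encodes the lid of the Hspd1 barrel. Its KO levels were 1.97, 2.39 and 4.70 in set 1 and -2.96, 1.33, -0.98 and 1.96 in set 2. Its WT levels were 4.28, 2.44 and 1.46 in set 1 and 1.43, 2.54, 2.70 and 1.29 in set 2. The lowest KO values, on replicates 1 and 3 of set 2, were not well above background, while all 7 WT arrays were. The difference was -1.11 (SE 0.85, interval -2.91 to 0.70; adjusted p = 0.52), and the other Hspe1 probes differed by -1.18 (SE 0.88) and -0.60 (SE 0.69). Without KO set 2 replicate 1 it was -0.51. It was -1.72 with quantile normalization and -2.15 when probes above background on all arrays set the scale, with adjusted p of 0.368 and 0.272. Hspd1 and Hspe1, whose starts share the promoter stretch shown above, thus differed in opposite directions over the 14 arrays, neither past the threshold. A difference between the genes was not tested.

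The sets gave similar medians for the 10 genes, 1.47 in set 1 and 1.39 in set 2, beside medians over all probes of -0.04 and 0.71. Whether a difference depended on the set was tested for each gene, and 0 of the 10 passed at an adjusted p under 0.05 (0% of all probes passed) or at an unadjusted p under 0.05 (5.37% of all probes). Hspe1 differed by 0.29 (SE 1.26) in set 1 and -2.15 (SE 1.09) in set 2, and the difference between the sets was -2.44 (SE 1.66; adjusted p = 0.876). Hspd1 differed by 2.27 (SE 1.62) in set 1 and 0.22 (SE 1.40) in set 2. Within slide 2, which held 4 KO and 2 WT arrays, the differences ran from -2.23 for Hspe1 to 2.42 for Hsp90b1. Slide 3 held WT arrays only and gives no value.

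Single arrays stood high or low for many of the genes together. Replicate 4 of KO set 1 was the highest array of its set for 10 of 10 genes, and replicate 4 of WT set 1 was the lowest for 9. In set 2, KO replicates 1 and 2 were the highest for 5 and 4 genes, and KO replicate 4 was the lowest for 4. Averaged over the 10 genes, the level was 3.47 ± 0.64 on WT arrays and 4.68 ± 1.33 on KO arrays (SD, n = 7 each). It was highest on KO set 1 replicate 4 (6.46), KO set 2 replicate 1 (5.74) and KO set 2 replicate 2 (5.43), which had 37.3%, 29.9% and 20.6% of spots above background. KO set 2 replicate 4, with 52.3%, had the lowest mean (2.62). After quantile normalization this average was 10.9 ± 0.466 on WT arrays and 11.1 ± 1.10 on KO arrays (SD, n = 7 each), on the log2 signal scale. The median difference of the 10 genes relative to that of all probes was 1.12 over 14 arrays, 0.42 after quantile normalization, 0.72 with the normexp background correction and 0.28 without the 4 dim KO arrays. Without those arrays the differences, KO minus WT, were 0.31 for Hsp90aa1, 0.33 for Hsp90ab1, 0.09 for Hsph1, 0.70 for Dnaja1 and 0.77 for Hspa5. They were 0.24 for Hspa9, 0.07 for Hspd1 and -0.34 for Hspe1, with a median of -0.11 over all probes and adjusted p of at least 0.94. With quantile normalization they were 0.61 for Hsp90aa1, 0.63 for Hsp90ab1, 0.34 for Hspa8, 0.18 for Hsph1, 0.30 for Dnaja1 and 0.22 for Hspa5. Those of Hsp90b1, Hspa9, Hspd1 and Hspe1 were 0.12, 0.05, 0.74 and -1.72, beside a median of -0.16 over all probes. Summed B-1a marker levels (log2 of the summed signal, scaled as above) ran from 7.94 to 12.3 in KO and from 7.65 to 9.45 in WT, summed macrophage marker levels from 3.59 to 9.54 and from 3.88 to 7.44, and summed T cell marker levels from 2.11 to 4.72 and from 1.83 to 3.58. Those of mast cells and granulocytes ran from 0.18 to 4.20 and from 1.20 to 3.75, and those of mesothelial and stromal cells from -0.61 to 2.01 and from 1.03 to 3.48. Single markers in the B-1a sum, such as Bhlhe41 and Spn above, can lie the other way. The part of cell composition in the differences was not tested.

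**Figure D3:**
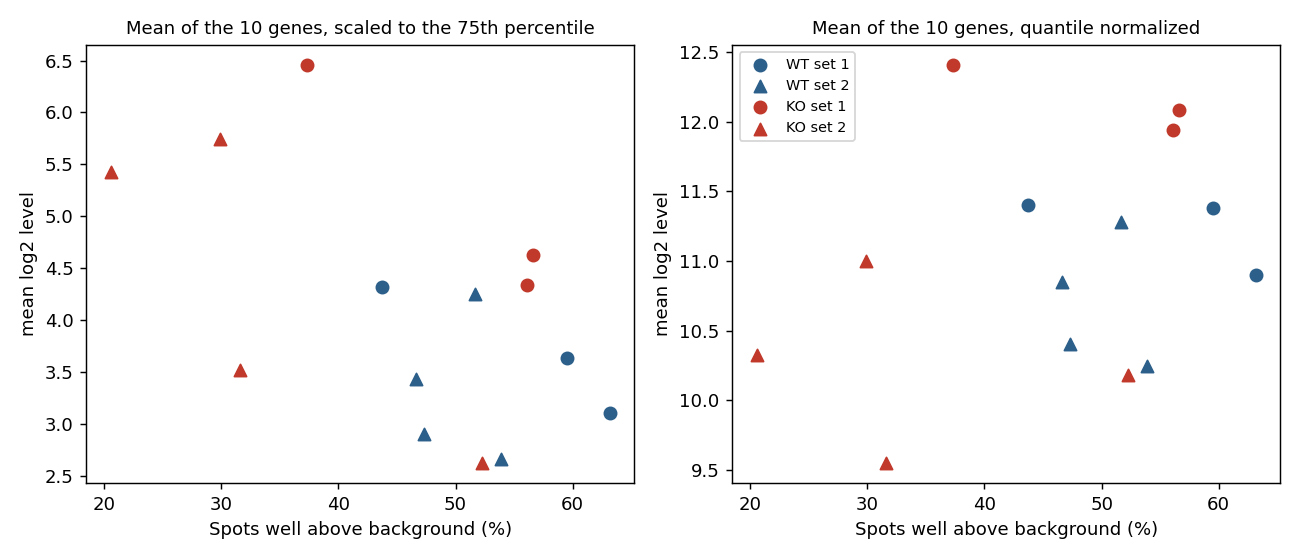
Mean log2 level of the 10 genes on each array against the percentage of spots well above background, scaled to the 75th percentile (left) and quantile normalized (right). Blue is WT, red is KO, circles are set 1 and triangles set 2. On the left the highest means, 6.46 and 5.74, belong to KO arrays with 37.3% and 29.9% of spots above background. On the right the means of the dim KO arrays of set 2 lie at or below 11, while the dim KO array of set 1 is the highest of all at 12.4.

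**Figure D4:**
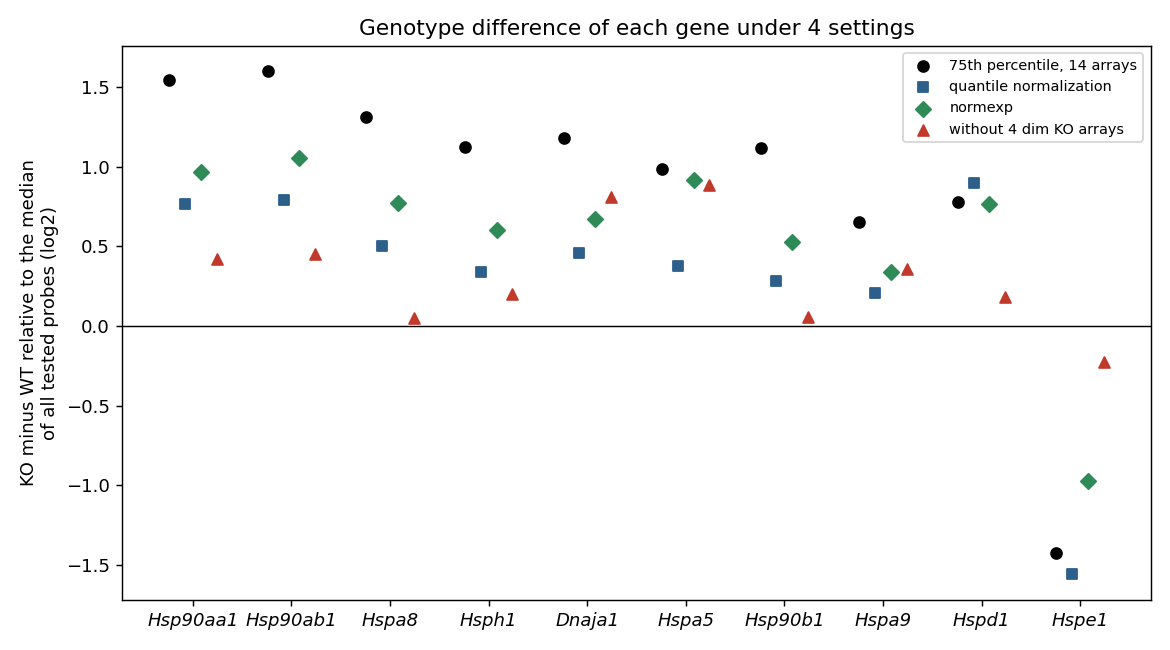
KO minus WT difference of each gene relative to the median of all tested probes (log2), with the 75th percentile scaling over 14 arrays, quantile normalization, normexp, and without the 4 dim KO arrays. The 9 genes other than Hspe1 lie above 0 with each of these settings, by 0.05 for Hspa8 without the dim arrays, and Hspe1 lies below 0.

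Pairs of genes whose products work together were compared over the 14 arrays, with 100000 permutations and adjustment over the 5 pairs. The permutations mixed arrays of both genotypes and sets. Their p-values therefore cannot tell a relation particular to a pair from shifts of whole arrays or groups. The cytosolic Hsp90 genes Hsp90aa1 and Hsp90ab1 were correlated (r = 0.86, permutation p = 0.00044, adjusted p = 0.0022; rho = 0.776, permutation p = 0.0017, adjusted p = 0.00425). Without the 2 arrays farthest from the median of Hsp90aa1, r was 0.72, and within sets 1 and 2 it was 0.923 and 0.838. Hspa8 followed its exchange factor Hsph1 (r = 0.739, permutation p = 0.00177, adjusted p = 0.004425; rho = 0.868, permutation p = 9e-05, adjusted p = 0.00045), with r of 0.781 without 2 arrays and 0.729 and 0.803 within the sets. It also followed Dnaja1 (r = 0.597, permutation p = 0.0237, adjusted p = 0.0395; rho = 0.692, permutation p = 0.00764, adjusted p = 0.0127), with r of 0.671 without 2 arrays and 0.721 and 0.71 within the sets. Within sets 1 and 2, the exact permutation p of r was 0.0222 and 0.01225 for the Hsp90 pair. It was 0.0667 and 0.0136 for Hspa8 with Hsph1, and 0.107 and 0.0429 for Hspa8 with Dnaja1.

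Neither organelle pair passed over the 14 arrays. Hspa5 and Hsp90b1 gave r = 0.251 (permutation p = 0.382, adjusted p = 0.382) and rho = 0.45 (permutation p = 0.108, adjusted p = 0.135), with r of 0.988 in set 1 and 0.325 in set 2, and 0.821 without the 2 arrays farthest from the median of Hspa5. Hspd1 and Hspe1 gave r = 0.258 (permutation p = 0.377, adjusted p = 0.382) and rho = 0.314 (permutation p = 0.273, adjusted p = 0.273), with r of 0.0128 without 2 arrays, 0.726 in set 1 and -0.442 in set 2. The exact permutation p of r within sets 1 and 2, not adjusted, was 0.00139 and 0.442 for Hspa5 with Hsp90b1. It was 0.108 and 0.287 for Hspd1 with Hspe1. All these correlations share the scaling of each array. After quantile normalization r lay between -0.334 and 0.386 and 0 of the 5 pairs passed, with permutation p of 0.216 for the Hsp90 pair, 0.175 for Hspa8 with Hsph1 and 0.57 for Hspa8 with Dnaja1. With that scaling, rho was 0.604 for Hspa8 with Hsph1 (permutation p = 0.0248, adjusted p = 0.124). Without 2 arrays, r was 0.919 for Hspa8 with Hsph1 and 0.77 for Hspa8 with Dnaja1. For the Hsp90 pair r was 0.357 over 14 arrays and 0.145 without 2 arrays. Without 2 arrays it was 0.303 for Hspa5 with Hsp90b1 and 0.075 for Hspd1 with Hspe1. Within sets 1 and 2, quantile-normalized r was 0.74 and -0.053 for the Hsp90 pair and 0.397 and 0.275 for Hspa8 with Hsph1. It was 0.356 and -0.187 for Hspa8 with Dnaja1, 0.35 and -0.39 for Hspa5 with Hsp90b1, and 0.321 and -0.393 for Hspd1 with Hspe1. The smallest exact permutation p of these within-set values was 0.0806, for the Hsp90 pair in set 1. Why r changed with the scaling was not tested.

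Genes whose profile over the 14 arrays was most like the mean of the 10 genes, each centred on its own mean, were Tpm3, a tropomyosin (r = 0.961), Dnttip2, a nucleolar protein (r = 0.957), and Ncor1, a nuclear receptor corepressor (r = 0.954). A pair of features without a gene symbol had r of 0.958 and 0.946. They were chosen as the highest of 20330 genes, so these values are a description. After quantile normalization r was 0.852, 0.926 and 0.889 for the named genes and 0.415 and 0.492 for the others.

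Other chaperone genes were described by their lists. Of 137 listed genes 135 were on the array and 119 were measured, and 0 were higher or lower at an adjusted p under 0.05, with 16 higher and 3 lower at an unadjusted p under 0.05, beside 8.18% and 5.38% of all probes. Genes that entered through 1 genotype alone are among these counts. Relative to all probes, the median difference of these genes was 0.37 and that of the 10 genes 1.12. The medians were 0.02 and 0.42 with quantile normalization, 0.20 and 0.72 with normexp and 0.24 and 0.28 without the 4 dim arrays, and a difference between them was not tested. The chaperonin CCT, which folds actin and tubulin, and its partner prefoldin had a median difference of 1.65 over 13 measured genes, with 12 above 0 (59.8% of all probes were) and 5 higher at an unadjusted p under 0.05 (8.18% of all probes). Cct3 differed by 2.32 (SE 0.78, adjusted p = 0.304), Tcp1 by 1.94 (SE 0.69), Cct8 by 1.52 (SE 0.66) and the prefoldin subunit Pfdn5 by 1.96 (SE 0.80). Endoplasmic reticulum folding factors had a median of 1.05 over 22 genes. Among them Fkbp11, a prolyl isomerase of secretory cells, differed by 2.31 (SE 0.76), Manf, a stress-induced secreted protein, by 2.27 (SE 0.93), and Serpinh1, a collagen chaperone, by 1.42 (SE 0.64). Ero1l, the oxidase that drives disulfide formation, differed by -2.25 (SE 0.91) and was above background on 4 KO and 7 WT arrays.

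The Hsp90 co-chaperones had a median of 0.45 over 17 genes. St13 (Hip), which stabilises the Hsp70 client complex, differed by 2.26 (SE 0.80), Ptges3 (p23), which locks the closed Hsp90 dimer, by 1.74 (SE 0.79), the cyclophilin Ppid by 1.61 (SE 0.76) and Tsc1 by 2.25 (SE 1.31). J-domain proteins had a median of 0.71 over 25 genes, among them Dnajc15, which acts at the mitochondrial inner membrane. Dnajc15 was above background on 6 KO and 0 WT arrays, so it entered the comparison through KO alone and had to differ. Its mean signal on the main scale, given as a description, was at least 10.73-fold higher in KO (adjusted p = 0.272). That bound sets the KO mean of -0.20 against a WT value of -3.62. The WT value is the mean over arrays of the lowest signal that counts as above background or of the probe itself, whichever was higher. The bound thus allows for dim WT signal and not for the spread of the KO arrays, whose SD was 4.47. The difference was 2.58 in set 1 and 6.43 in set 2. Values of this gene with other scalings or without the dim arrays are not given, so the bound is not a lower limit on a genotype difference. Dnajc7 differed by 1.83 (SE 0.70), Dnajc5, of synaptic and secretory vesicles, by 1.27 (SE 0.58) and Dnajb12, of the endoplasmic reticulum membrane, by 1.42 (SE 0.71).

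Hsp70 exchange factors and relatives had a median of 0.38 over 13 genes, with Hspa4 at 1.41 (SE 0.68), Bag1 at 1.40 (SE 0.72), Hspbp1 at 2.65 (SE 1.68) and Bag2 at 0.996 (SE 0.95). Mitochondrial chaperones and proteases had a median of 0.73 over 11 genes. Within that list the import motor subunit Pam16 differed by 1.06 (SE 0.59) and the matrix protease Lonp1 by 1.82 (SE 1.17), while the matrix protease Clpp differed by -1.43 (SE 1.04). Lonp1 was above background on 4 KO and 4 WT arrays, and Clpp on 4 KO and 7 WT arrays. The inner membrane protease Afg3l2 was above background on 2 KO and 7 WT arrays, so it entered through WT alone, most of its KO values lie at background, and no difference is given. Heat shock factors and regulators of the unfolded protein response had a median of -0.11 over 11 genes, below that of all probes. Atf6b, a membrane-bound transcription factor of that response, differed by -2.23 (SE 0.71, adjusted p = 0.295), its relative Atf6 by 1.41 (SE 0.81), Ppp1r15a, a phosphatase subunit that restores translation after stress, by 1.32 (SE 0.66) and the heat shock factor binding protein Hsbp1 by 1.57 (SE 0.93).

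Of 17 inducible Hsp70 and small heat shock proteins, 16 were on the array and 7 were measured, with a median of 0.11. The small heat shock protein Cryab differed by 1.22 (SE 0.56) and Hspb6, above background on 4 KO and 6 WT arrays, by -0.43 (SE 0.78). Cryaa was above background on 3 KO and 4 WT arrays, so it entered through WT alone and no difference is given. Hspa2, the testis Hsp70, was above background on 0 KO and 4 WT arrays, and no fold is given because its bound was under 1. Hspa1a, the classic heat-inducible Hsp70, named here for its role, was above background on 3 KO and 3 WT arrays and did not enter the comparison. Its log2 level ranged from -5.59 through a median of -2.99 to 0.57 in KO and from -5.11 through -3.18 to 1.98 in WT, and the genotypes overlapped.

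**Figure D5:**
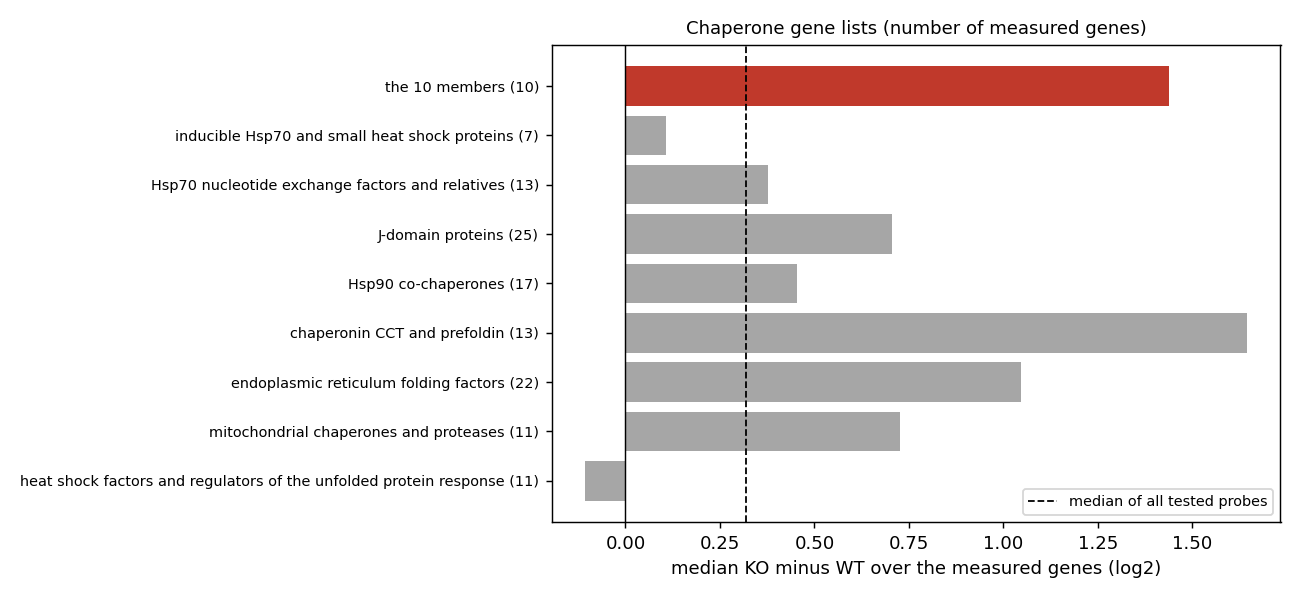
Median KO minus WT difference (log2) over the measured genes of the 10 chaperones and of each other chaperone list, with the number of measured genes in brackets. The dashed line is the median of all tested probes at 0.32. The medians run from -0.11 for heat shock factors and regulators to 1.65 for CCT and prefoldin, and that of the 10 chaperones is 1.44.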

How the data were processed

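Per the labels, Cy3 labelling of cDNA followed an undisclosed protocol of a company, so whether the RNA was amplified is unknown. Per the file headers, Agilent Feature Extraction 10.7.3.1 gave the intensity of each spot after spatial and multiplicative detrending, without local background subtraction, and positions are those of mm9, and the submitters' processing notes name the same tool. Other columns score every spot as 0 or 1, per the file headers, to mark saturation, outliers and signal well above background. The deposited table of log2 values had the same median (3.952) in each of its 14 columns and tracked the scanner signal (lowest Spearman's rho 0.9993) and its quantile-normalized form (lowest r 0.9995), which settles the log2 scale and direction. No tool for it was named by the labels or headers, and it served as an alternative.

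Values analysed were log2 processed intensities from which the 75th percentile of the array, taken over 59305 non-control spots, was subtracted, with outlier spots left out. Probes well above background on at least 4 of 7 arrays of either genotype were kept. Differences came from limma 3.58.1 in R 4.3.3 (lmFit and eBayes on all kept probes, two-sided) with the experiment set as a covariate and Benjamini-Hochberg adjustment over all 29679 probes. Differences within sets and between them came from a second fit with 4 group means. The number of arrays limits the precision. The set was read from the numbering style of the titles, and 0 arrays had saturated spots. Correlations used permutations in scipy 1.17.1, exact within sets, and scripts were checked on simulated data. The replicate numbers were not taken as pairs in the main fit. The genes, lists and alternatives were chosen with earlier results of these data known. All 10 genes are named, with up to 4 genes of each other list by smallest p and the 5 most alike by correlation. Alternatives were other scalings, background correction, filters, probe choices, slide and replicate as blocks, and arrays left out. A B-1a cell marker of the original list is not reported here and was left out of that list.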

Additional observations from a re-analysis of the deposited data

Results flagged for a closer look

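KO set 2 replicate 4 stood apart from the other KO arrays for Hsph1, at 1.56 against 4.64 for the nearest of the other 6 (Dixon's ratio 0.601 against a critical value of 0.568 for 7 arrays). The 20 combinations of gene and genotype were examined, and chance gives such a gap in about 1 of 20. The same array had the lowest mean level of the 10 genes. Without it the Hsph1 difference was 2.02 (limma, adjusted p = 0.111).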

How the results depend on the processing

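None of the 10 genes passed the threshold with any of the 26 alternatives, and their smallest adjusted p was 0.111 (limma, without KO set 2 replicate 4). Of the differences, 3 turned direction, all near 0: Hspa9 to -0.0733 when probes above background on all arrays set the scale, and Hspa8 and Hsp90b1 to -0.065 and -0.0552 without the 4 dim arrays. Relative to all probes, the median of the 10 genes was above 0 with every alternative, from 0.28 without the dim arrays to 1.44 without KO set 2 replicate 4, with 0.85 to 1.44 over the 14 fits that leave out 1 array. With that scale the calls over all probes, 1 higher and 8 lower over 14 arrays with the 75th percentile, were 1 higher and 139 lower, and the median of all probes went from 0.32 to -0.73. Quantile normalization gave 1 higher and 25 lower, normexp 1 and 12, slide as a fixed block 0 and 8, and leaving out KO set 1 replicate 3 or KO set 2 replicate 4 gave 16 and 49 or 2 and 35. The filter for signal on all arrays left 7 of the 10 genes, and the median over the 7057 probes it kept was 1.07. Relative to that median, the 7 genes had a median of 0.43, with 6 above it and Hspa9 below it (-0.097).

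Same-numbered KO and WT samples did not deviate together (r of -0.217 to 0.19, with the own number best in 1 of 7). So few arrays, some of them dim, cannot exclude that the numbers pair the samples. With a replicate block 0 of the 10 genes passed, the relative median was 1.12, and the calls over all probes were 1 higher and 7 lower. Dim signal limits Hspd1, Hspe1, Hspa5 and the second probes of Hsph1 and Dnaja1, for which at least 1 array was not well above background.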
